A study of Mus musculus with 41 samples.

Results

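The secreted mucosal defence genes Lcn2, Pigr, Ltf, Igj, Plunc and Reg3g, were followed in lung and liver of mice that had inhaled nanoTiO2 or filtered air. They were taken by name from the mouse array: 6 of 27962 gene names and 8 of 41174 probes, with 2 probes each for Ltf and Igj. All 6 were chosen by the difference between exposed and control lung or in view of it, so that difference is described here without a test. Liver, and the difference between control lung and control liver, played no part in the choice and were tested.

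The mice were female C57BL/6BomTac (C57BL/6 in the labels) that had been time-mated but had not conceived. Exposed mice inhaled UV-Titan L181, a surface-coated rutile titanium dioxide, at 40 mg/m3 for 1 h on each of 11 days and were killed 5 days after the last exposure. Control mice breathed filtered air, and the labels give no other treatment and no genetic modification for any group. There were 7 exposed lungs, 6 control lungs, 7 exposed livers and 8 control livers, each on its own array, and 6 exposed and 6 control mice gave both organs. RNA came from a random piece of left lung or liver, so an array shows the mixture of cells in that piece, and in such RNA more cells of a type and more RNA per cell cannot be told apart. On each array the tissue RNA was labelled with Cy5 and a common reference RNA from 11 mouse cell lines with Cy3, with no array in which the dyes were exchanged. Values are log2(Cy5/Cy3), the log2 ratio of tissue to reference signal at the same spot after background correction and loess normalization. A difference of 1 on this scale is a doubling. A ratio at 1 probe cannot be set against a ratio at another.

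Between 55.1% and 70.5% of the spots on an array were well above background in Cy5, and no spot of these genes was saturated or marked as irregular by the scanner software. Marker lists bore out the organ labels, since the alveolar type 2 list averaged 4.03 to 4.31 in lung and 0.05 to 0.38 in liver, and the hepatocyte list 0.40 to 2.32 in lung and 4.83 to 5.35 in liver. Lung RNA was hybridized on 4 slides, of which the fourth held exposed lungs only, and exposed lungs took the first pair of array positions on a slide and controls the last pair, so position and exposure cannot be told apart. Lung and liver were scanned with different software versions and on different slides, so tissue and slide cannot be told apart either.

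The proteins these genes encode act in the fluid that covers epithelia. Lipocalin 2 (Lcn2) binds bacterial siderophores and so withholds iron, and lactotransferrin (Ltf) binds iron itself. Both are made by epithelium and are also stored in neutrophil granules. The polymeric immunoglobulin receptor (Pigr) carries dimeric IgA and IgM through epithelial cells to the lumen, and the joining chain (Igj, now Jchain), made by plasma cells, links the antibody units that Pigr recognizes. In rodents hepatocytes also make Pigr and move IgA into bile. Plunc (now Bpifa1) is a secreted BPI-fold protein of the upper and conducting airways, and Reg3g is a C-type lectin that acts on Gram-positive bacteria and is best known from the gut.

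The probe sequences of Lcn2 and Ltf are shown because an array value reports these 60 bases and nothing else of the transcript. Coordinates are those of the array annotation, build mm7. The Lcn2 probe matched chr2:32392828-32393072 on the minus strand, 245 genomic bases for 60 probe bases, so it spans a splice junction. The first Ltf probe lay within 60 genomic bases, chr9:110738071-110738130 on the plus strand, and the second was spread over 3051 genomic bases, chr9:110733462-110736512 on the plus strand.
Lcn2: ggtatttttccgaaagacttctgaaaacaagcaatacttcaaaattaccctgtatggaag
Ltf, first probe: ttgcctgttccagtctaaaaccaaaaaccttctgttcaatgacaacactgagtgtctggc
Ltf, second probe: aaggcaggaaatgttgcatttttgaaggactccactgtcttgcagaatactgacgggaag
Because the second Ltf probe reads a different stretch of the mRNA than the first, the pair gives separate readings of the same gene.

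The promoters of Lcn2 and Pigr are shown because these were the genes whose exposed and control lungs did not overlap. The sequences come from RefSeq, build GRCm38.p6, where 6 of 6 genes were found. Each is given 5′ to 3′ on the strand of its gene, as the 250 bases before the start, chr2:32387740-32387989 on the minus strand for Lcn2 and chr1:130826434-130826683 on the plus strand for Pigr. Capitals mark the only motif match.
Lcn2 promoter: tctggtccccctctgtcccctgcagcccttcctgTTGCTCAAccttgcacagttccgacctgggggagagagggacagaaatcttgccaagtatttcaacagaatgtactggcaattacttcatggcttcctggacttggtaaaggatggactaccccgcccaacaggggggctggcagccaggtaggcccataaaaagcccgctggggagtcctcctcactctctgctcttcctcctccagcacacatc
Pigr promoter: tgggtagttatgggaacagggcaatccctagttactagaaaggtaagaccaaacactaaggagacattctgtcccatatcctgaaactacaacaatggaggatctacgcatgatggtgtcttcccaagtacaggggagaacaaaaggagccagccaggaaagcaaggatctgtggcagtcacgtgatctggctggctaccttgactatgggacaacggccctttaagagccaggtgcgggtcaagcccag
A window that also holds the first 50 bases of each gene was searched on both strands for the kB consensus, the C/EBP pattern TTNNGNAA, the interferon-stimulated response element and the TATA box TATAAA. The Lcn2 window held 1 match, to the C/EBP pattern on the opposite strand from -216 to -209 relative to the start. The Pigr window held 0 matches, which says only that these letters are not in this window. Over 32851 promoters of the same length, 4.51% held the kB consensus, 40.7% the C/EBP pattern, 3.44% the interferon-stimulated element and 13.6% the TATA box, so a C/EBP match was common.

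Lcn2 stood higher in every exposed lung than in every control lung. The 7 exposed lungs ran from 2.87 (mice 1 and 19) through a median of 3.07 to 3.33 (mouse 7), and the 6 control lungs from 1.23 (mouse 26) through a median of 1.33 to 1.55 (mouse 32). The gap between the lowest exposed and the highest control lung was 1.31 on the log2 scale, wider than the whole range within either group. Group means were 3.06 ± 0.16 (SD, n = 7) and 1.35 ± 0.11 (SD, n = 6), a difference of 1.70 or 3.26-fold. For comparison, 0.279% of all probes had every exposed lung above every control lung, and since Lcn2 and Pigr were chosen for this difference nothing is read from their place among them.

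The Lcn2 difference was of like size on each slide that held both groups, at 1.84 on slide 1, 1.63 on slide 2 and 1.55 on slide 3. Leaving out any 1 lung kept it between 1.66 and 1.74. Within its groups Lcn2 varied little more than a typical probe: its spread around the group means lay at percentile 63.3 of 23274 probes measured above background on every lung array. The reference channel moved with it, since the raw Cy3 signal of the Lcn2 spot was 108.5 to 147 on exposed arrays and 55.5 to 81 on control arrays although the reference RNA was the same. The tissue channel taken alone gave a wider difference, 2.14 or 4.40-fold. With other handling of irregular spots in the background model the log2 difference was 1.18 or 1.20.

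**Figure D1:**
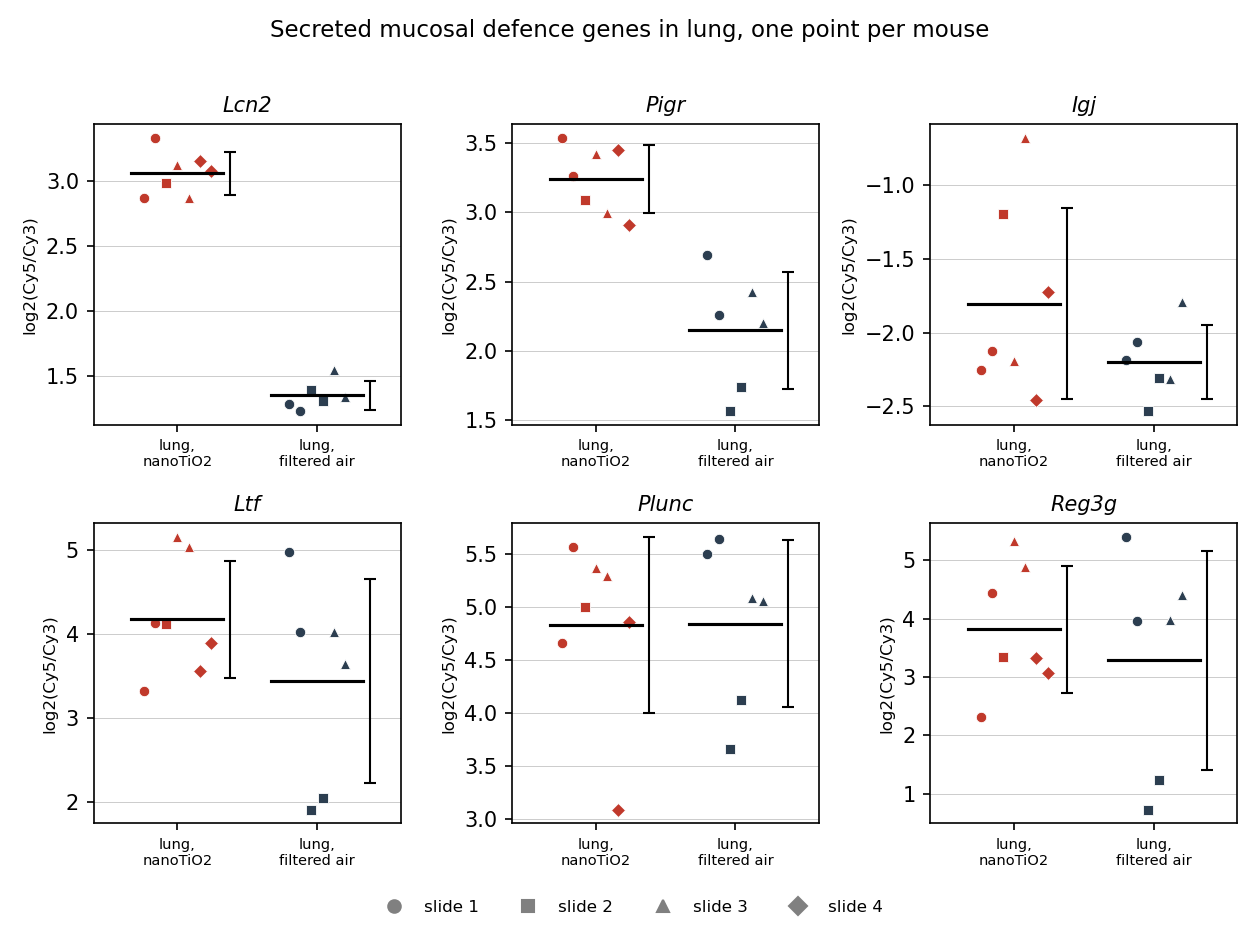
Log2(Cy5/Cy3) of the 6 genes in lung, 1 point per mouse, with the group mean and SD as a line and bar and the marker shape giving the slide. The exposed and control points of Lcn2 (2.87 to 3.33 against 1.23 to 1.55) and of Pigr (2.91 to 3.54 against 1.57 to 2.69) do not overlap, those of Ltf, Igj, Plunc and Reg3g do, and the order of Pigr reverses with the scanner software's own processed signals.

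Pigr was also higher in every exposed lung, with a narrower gap. Exposed lungs ran from 2.91 (mouse 23) through 3.26 to 3.54 (mouse 1), and control lungs from 1.57 (mouse 27) through 2.23 to 2.69 (mouse 24). The groups were 0.22 apart at their nearest. Means were 3.24 ± 0.24 (SD, n = 7) and 2.15 ± 0.42 (SD, n = 6), a difference of 1.09 or 2.13-fold, and the slides gave 0.92, 1.43 and 0.89. Control mice 27 and 29, both on slide 2, were the lowest of the lungs, and the 4 other controls lay between 2.20 and 2.69.

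The reference spot of Pigr was dim. Its raw Cy3 signal was 22 to 38 on exposed and 13 to 19 on control arrays, and it was well above background on 7 of 7 exposed but 1 of 6 control arrays. The difference depended on how the background was handled: it was 0.36 when the background model was fitted on all spots, 0.23 when only 1 class of irregular spots was removed, and −0.35, with exposed lungs lower, in the scanner software's own processed signals. The tissue channel alone gave 1.27. Its normalization used the mean signal of both channels at each spot, so this value is not free of the dim spot. Raw Cy5 was 456 to 1206 on exposed arrays and 101.5 to 514 on control arrays.

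Pigr is made both by airway epithelium and, in rodents, by hepatocytes, so marker genes of these cells were set beside it. All 7 hepatocyte markers were higher in exposed lungs, by a median of 0.80, and none passed the test. The median over the 161 genes of the 13 lists was 0.04. Only 4 of the 7 were well above background on most lung arrays. Their median depended on the background step too: it was 0.42 with the model fitted on all spots and 0.32 with only 1 class of irregular spots removed. Their mean was 0.71 to 2.32 in exposed and 0.40 to 1.10 in control lungs. The 10 airway markers averaged 3.57 to 4.45 in exposed and 3.10 to 4.33 in control lungs. The lung with the highest Pigr (exposed mouse 1, 3.54) had the highest hepatocyte mean of the 13 lungs, 2.32, and an airway mean of 3.59, near the low end of its group. The exposed lung with the lowest hepatocyte mean (mouse 12, 0.71) had Pigr at 3.09, above every control. The part of either cell type in the Pigr difference was not tested. In control lungs mice 27 and 29 were lowest for Pigr and for both lists (hepatocyte means 0.40 and 0.59). Mouse 24 was the highest control for Pigr and the airway list, but not for the hepatocyte list (0.81). In exposed lungs the order differed: mice 1 and 20 had the highest Pigr (3.54 and 3.45) and the lowest airway means (3.59 and 3.57).

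**Figure D2:**
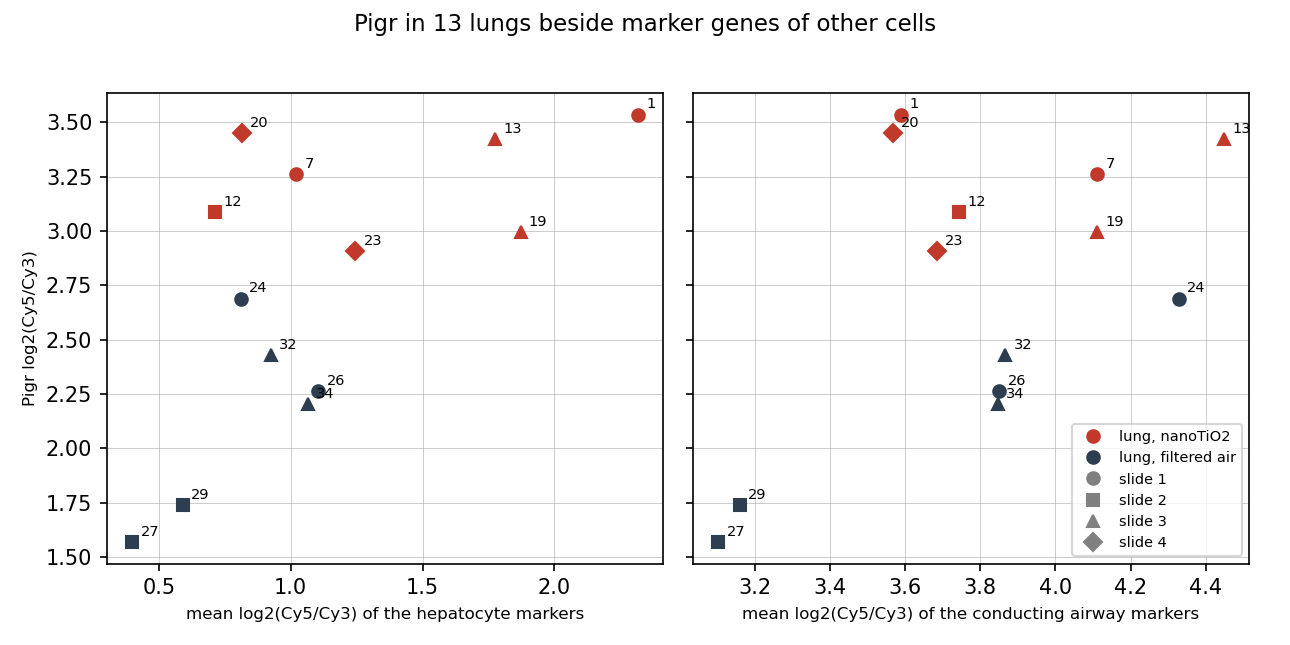
Pigr log2(Cy5/Cy3) in 13 lungs (vertical) against the mean log2(Cy5/Cy3) of the hepatocyte markers and of the conducting airway markers (horizontal), 1 point per mouse, coloured by group. The hepatocyte means of the groups overlap between 0.71 and 1.10, and the exposed lung with the highest hepatocyte mean (mouse 1, 2.32) has the highest Pigr (3.54). The control lungs with the lowest airway means (mice 27 and 29, 3.10 and 3.16) have the lowest Pigr and the lowest hepatocyte means (0.40 and 0.59).

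Ltf, the iron-binding protein of mucosal fluid, overlapped widely between the groups. Exposed lungs ran from 3.32 (mouse 1) through 4.11 to 5.15 (mouse 13), and control lungs from 1.91 (mouse 27) through 3.83 to 4.98 (mouse 24). Means were 4.17 ± 0.69 (SD, n = 7) and 3.43 ± 1.21 (SD, n = 6), and the second probe gave 3.99 and 3.25. The difference of 0.74 was smaller than the spread within the control group and changed direction between slides, from −0.78 on slide 1 to 2.14 on slide 2 and 1.26 on slide 3.

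Of the 6 log2 ratios that of Reg3g varied most, although in the tissue channel alone Plunc spanned a wider range. Exposed lungs ran from 2.31 (mouse 1) through 3.35 to 5.34 (mouse 13), and control lungs from 0.72 (mouse 27) through 3.97 to 5.41 (mouse 24), a 25.7-fold range among mice that had breathed only filtered air. Means of 3.82 ± 1.09 (SD, n = 7) and 3.28 ± 1.87 (SD, n = 6) differed by 0.53, with −1.31, 2.38 and 0.92 on the 3 slides. The spread of Reg3g around its group means was at percentile 99.98 of the probes measured, and that of Ltf and Plunc at 99.8 and 99.7.

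Plunc, the airway BPI-fold protein, had practically equal means, 4.83 ± 0.83 (SD, n = 7) after nanoTiO2 and 4.84 ± 0.79 (SD, n = 6) after filtered air. Exposed lungs ran from 3.09 (mouse 20) through 5.00 to 5.57 (mouse 7), and control lungs from 3.66 (mouse 27) through 5.07 to 5.64 (mouse 26). The slides gave −0.46, 1.11 and 0.26. The lung-to-lung range was much wider in the tissue channel than in the ratio: normalized Cy5 spanned 172-fold among exposed and 108-fold among control lungs, with raw Cy5 from 697 in control mouse 27 to 118794 in exposed mouse 19.

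The reference channel of the same spot moved too. Raw Cy3 of the Plunc spot climbed with Cy5 from 22.5 to 2609 over the lung arrays and was above background on 13 of 13, while on the 15 liver arrays, hybridized with the same reference, it was 8 to 17 and above background on 0. The log2 ratio of Plunc therefore spans less than its tissue channel, and both are given. Whether the Cy3 signal of bright lung spots came from the Cy5 dye was not tested.

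**Figure D3:**
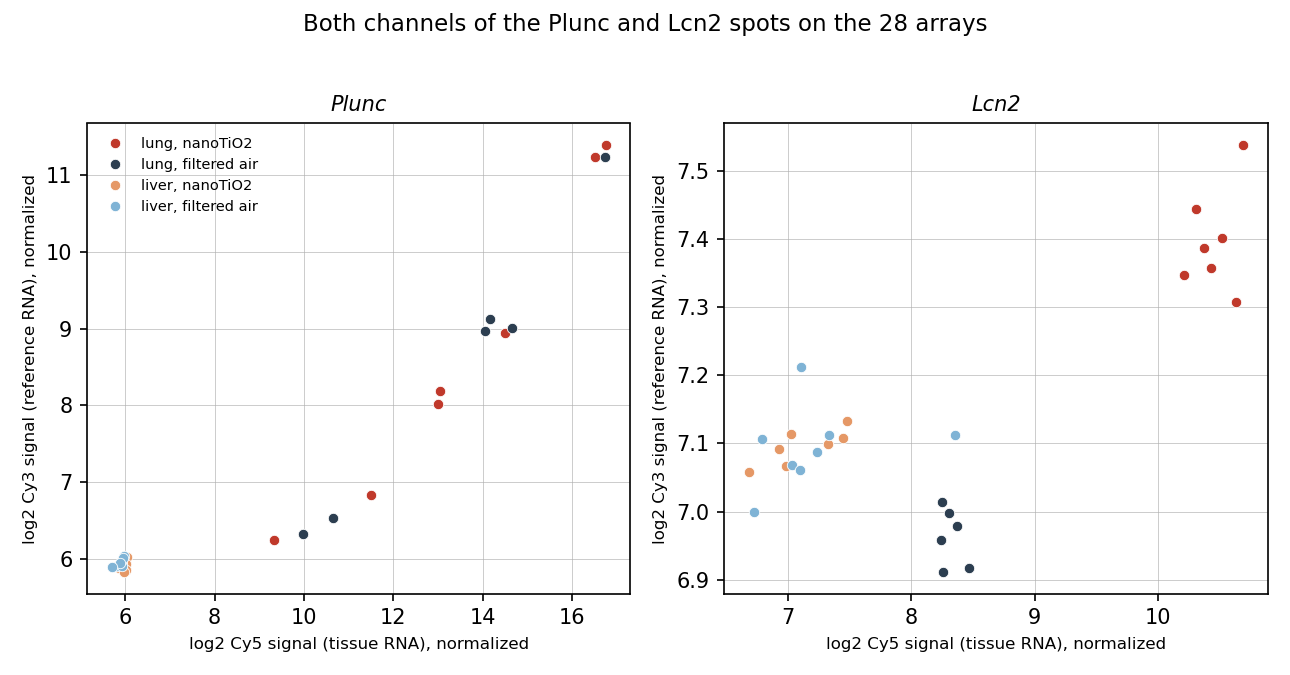
Normalized log2 Cy3 signal (reference RNA, vertical) against normalized log2 Cy5 signal (tissue RNA, horizontal) of the Plunc and Lcn2 spots, 1 point per array for 28 arrays, coloured by group. The Cy3 signal of Plunc climbs with Cy5 across the 13 lung arrays and is flat on the 15 liver arrays, and for Lcn2 the exposed lungs are higher in both channels.

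Ltf, Reg3g and Plunc varied together from lung to lung. Control mouse 24 and exposed mice 13 and 19 were high for Ltf and Reg3g, with Reg3g at 5.41, 5.34 and 4.89, and control mice 27 and 29 were low, at 0.72 and 1.22. After subtraction of the group means the correlation over 13 lungs was 0.96 between Ltf and Reg3g, 0.76 between Ltf and Plunc and 0.72 between Reg3g and Plunc. These points share slides, and values of Muc5b, the gel-forming mucin of the airways, ran with them: Reg3g correlated at 0.95 with Muc5b and at 0.95 with U46068, a BPI-fold relative of Plunc. Muc5b was 0.89 and 0.97 in control mice 27 and 29 and 3.17 to 3.99 in the 4 other controls. Lcn2 did not follow them, with correlations of −0.08 to 0.09 with Pigr, Ltf, Plunc and Reg3g.

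Within groups, 30 correlations between pairs of these genes were computed, 15 in each. Among exposed lungs Ltf and Reg3g had Pearson r = 0.926 and Spearman rho = 0.964 (n = 7, two-sided exact permutation, adjusted p = 0.0417 and 0.0833), and r was 0.771 without mice 13 and 19 (n = 5). Among control lungs Pigr and Ltf had r = 0.987 and rho = 0.943 (n = 6, two-sided exact permutation, adjusted p = 0.0417 and 0.143), and r was 0.949 without mice 27 and 29 (n = 4). The permutations took the lungs as exchangeable, although mice 13 and 19 shared slide 3 and mice 27 and 29 slide 2. Slide and mouse are therefore mixed in these p-values. These 2 Pearson values were the only ones of the 30 with an adjusted p under 0.05, and no Spearman value passed. Among exposed lungs Pigr and Ltf had r = −0.305 (n = 7, two-sided exact permutation, adjusted p = 0.723), and the difference between the groups was not tested.

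**Figure D4:**
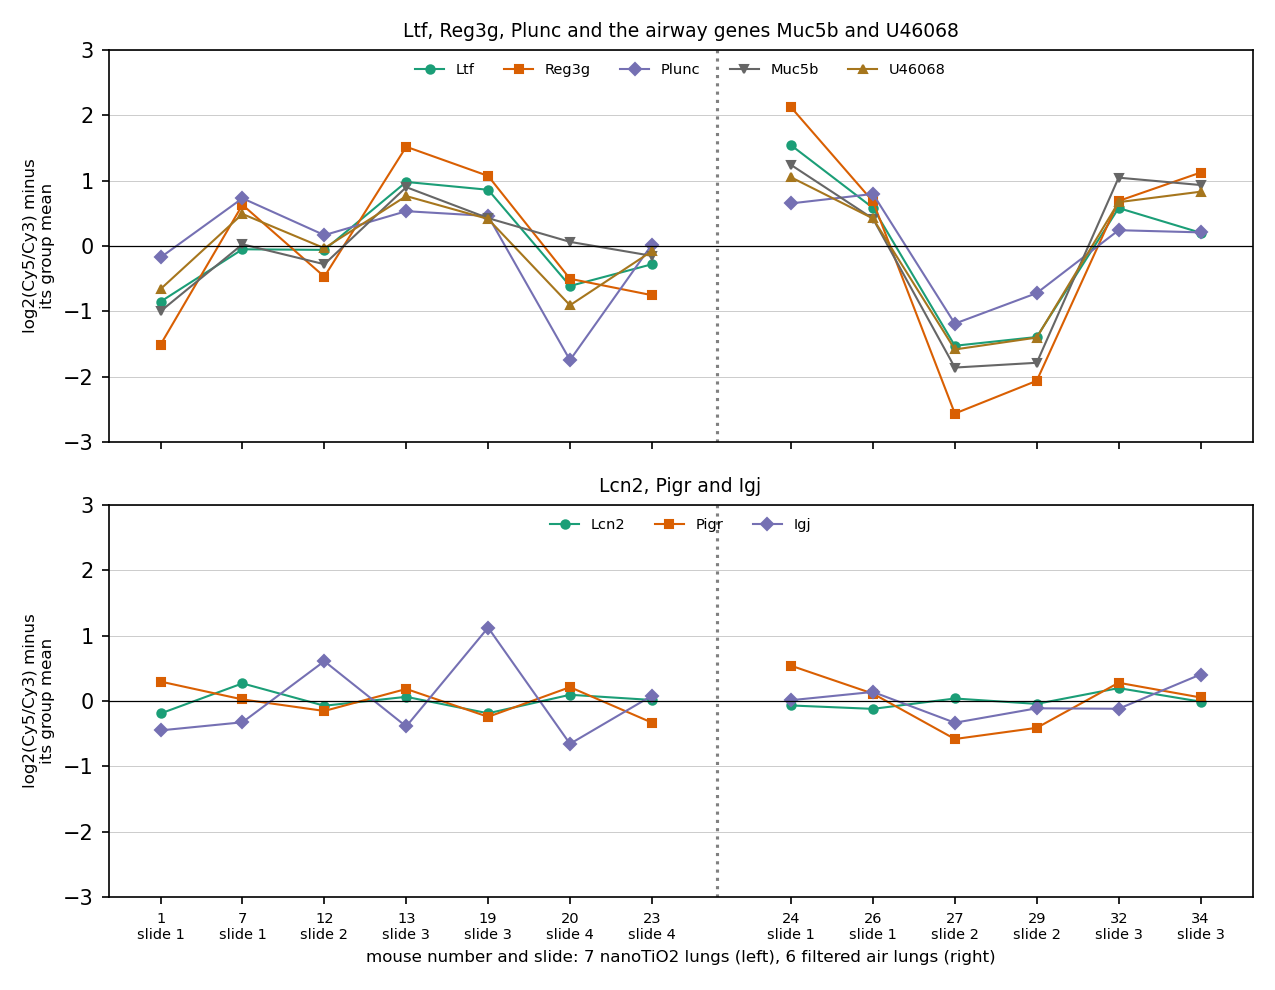
Log2(Cy5/Cy3) minus its group mean (vertical) for 7 exposed lungs (left) and 6 control lungs (right), ordered by slide, with 1 line per gene (upper panel Ltf, Reg3g, Plunc, Muc5b and U46068, lower panel Lcn2, Pigr and Igj). The genes of the upper panel are low together in control mice 27 and 29 on slide 2, Plunc (3.09) and U46068 (1.91) have their lowest exposed values in mouse 20, and Lcn2 stays near 0 throughout.

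Igj, the plasma cell gene, lay below the reference in all lungs. Exposed lungs ran from −2.46 (mouse 20) through −2.13 to −0.68 (mouse 19), and control lungs from −2.53 (mouse 27) through −2.25 to −1.79 (mouse 34). Means were −1.80 ± 0.65 (SD, n = 7) and −2.20 ± 0.25 (SD, n = 6), a difference of 0.40 that rested on 3 exposed mice: 19, 12 (−1.19) and 23 (−1.72) lay above every control. Without mouse 19 the difference was 0.21. The second Igj probe gave −2.49 and −2.98 with the same mice high. The probe with the most similar pattern over the 13 lungs was one for Igh-6, an immunoglobulin heavy chain, at r = 0.957. This was not the brightest Igh-6 probe, which followed Igj less. By that probe mouse 19 was the highest exposed lung (5.08), but mouse 23 was near the lowest (4.70). Among controls mouse 26 was highest (5.19), and mouse 34 was at 4.80.

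By the same measure, over 13 lungs after subtraction of the group means and among 23274 probes, the genes most like Lcn2 were Rab36 (0.913), 4933407C03Rik (0.854) and Acaa1a (0.848). Those most like Pigr were Scamp1 (0.931), Mtmr1 (0.919) and Trim37 (0.916). Those most like Plunc were Syf2 (0.931), D3Ertd751e (0.888) and Pcp4l1 (0.883). With so many probes and 13 lungs, correlations of this size are a description of these arrays.

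Neutrophil markers were set beside Lcn2 and Ltf, both of which neutrophils also store. In lung 3 of 14 markers were higher in exposed mice and the median difference was −0.16. Of these 3, Ela2 and Prtn3 were not well above background on any lung array. The marker list averaged 0.65 to 1.30 in exposed and 0.84 to 1.53 in control lungs. The paper reports a higher percentage of neutrophils in the lavage fluid of the exposed mice, a measure of cells in the airspaces and not of tissue RNA. The highest list mean of each group was in the lung with its highest Lcn2 (exposed mouse 7, 1.30, and control mouse 32, 1.53). The lungs with the next highest Lcn2 did not follow this order. Exposed mouse 20 (Lcn2 3.15) had the lowest list mean, 0.65, and control mouse 27 (Lcn2 1.39) had 1.07, near the low end of its group. The part of neutrophils in the Lcn2 difference was not tested. Of the markers, S100a8 had the lowest difference (−0.88, adjusted p = 0.707) and Mmp8 the highest (0.24, adjusted p = 0.721, limma).

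Beside the 6 genes, 161 others were followed in 13 lists of relatives, mucosal defence, iron and immunoglobulin genes and markers of other cells. In lung 2 of them passed the test, both higher, where 0.221% of all probes passed in either direction and 0.199% were higher. Steap4, a metalloreductase of iron and copper uptake, rose by 0.70 or 1.62-fold (adjusted p = 0.00469, limma), and Marco, a scavenger receptor of alveolar macrophages, rose by 0.57 or 1.48-fold (adjusted p = 0.0094, limma). Steap4 passed in 5 and Marco in 3 of 8 processing settings. In all, 106 of the 161 were higher in exposed lungs, with a median difference of 0.04 against 0.0013 over all probes. Counts of direction in these lists take in dim genes, and the share of all probes that were higher is not given. Some list medians changed sign with the processing: that of the airway markers was 0.23, and −0.11 with only 1 class of irregular spots removed.

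None of the lipocalin, BPI-fold and Reg relatives passed the test. Of 17 other lipocalins 15 were higher with a median of 0.06 and none passed, and only 8 were well above background on most lung arrays. Ambp, which hepatocytes make, had the highest difference (1.20, adjusted p = 0.651, limma) and Lcn5, not well above background on any lung array, the lowest (−0.04). Of 8 BPI-fold relatives of Plunc 6 were higher, from U46068 at 0.43 (adjusted p = 0.863, limma) to Pltp at −0.05. The 6 other Reg genes lay between −0.08 (Reg3d) and 0.04 (Reg1), and at most 1 of them was above background on any lung array.

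Among genes for immunoglobulin traffic and homing, 6 of 11 were higher and none passed. Tnfsf13b, the B cell survival factor BAFF, was highest at 0.27 (adjusted p = 0.0637, limma) and Ccl25 lowest at −0.09. Of 18 B lineage and plasma cell genes 9 were higher, from Ighg at 0.33 to Ms4a1 at −0.19. Of 21 other secreted antimicrobials 12 were higher, from Slpi, the leukocyte protease inhibitor, at 0.32 to Lyzs, a lysozyme, at −0.06. No gene of these lists passed.

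Genes of the IL-17, IL-22 and NF-kB axis, which are known to act on Lcn2, Pigr or Reg3g, were higher in 18 of 21 cases with a median of 0.07, and none passed. Nfkbiz, the inducible regulator of Lcn2 transcription, had the highest difference (0.39, adjusted p = 0.106, limma) and Il1b the lowest (−0.30, adjusted p = 0.828, limma). Of the iron-handling genes 14 of 16 were higher, and the lowest was the iron exporter Slc40a1 at −0.12. Airway markers ran from Muc5b at 0.73 (adjusted p = 0.798, limma) to the club cell gene Scgb1a1 at −0.19, alveolar type 2 markers from Lamp3 at 0.31 to Sftpb at −0.10, and hepatocyte markers from Cyp2e1 at 0.90 (adjusted p = 0.730, limma) to Ttr at 0.03.

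In liver no difference between exposed and control mice was found for these genes, and none of 41174 probes passed (0%; 1041 had an unadjusted p under 0.05). Lcn2 ran from −0.38 through −0.08 to 0.34 in exposed and from −0.32 through −0.0046 to 1.25 in control livers, a difference of −0.09 with a 95% interval of −0.49 to 0.31. Pigr was high and even, from 5.17 through 5.33 to 5.63 in exposed and from 5.29 through 5.41 to 5.58 in control livers, a difference of −0.05 (−0.22 to 0.11). The Pigr difference in liver was 0.69 (adjusted p = 0.518, limma) with the background model fitted on all spots and 0.61 (adjusted p = 0.557, limma) with only 1 class of irregular spots removed, so its direction and size depended on that step too.

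Ltf ran from 0.07 through 0.32 to 0.44 in exposed and from −0.14 through 0.42 to 2.51 in control livers, a difference of −0.30 (−0.89 to 0.29). Igj lay between −3.12 and −2.79 in all livers, a difference of −0.03 (−0.14 to 0.09). For Lcn2, Pigr, Ltf and Igj the adjusted p was 1.00 (limma) and the two-sided exact permutation p over 6435 splits was 0.760, 0.499, 0.487 and 0.600. Plunc and Reg3g were not well above background on any of the 15 liver arrays, and no fold is given. Of the 161 other genes 0 passed in liver, and 54 were higher in exposed mice.

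The liver of control mouse 32 stood apart for the 2 genes that neutrophils store. Its Lcn2 was 1.25 against −0.32 to 0.22 in the 7 other control livers, and its Ltf was 2.51 against −0.14 to 0.60. Pigr (5.45) and Igj (−2.99) of that liver lay within the range of the others. In the same liver S100a9 was at 6.46 against 2.10 to 4.21 in the 7 other control livers. Camp was at 2.70 against −0.11 to 0.11 and Mpo at 1.83 against −0.34 to −0.01. Fpr1 was only just above them, at 1.92 against at most 1.86, and Ela2 was well above background on 0 of 8 control livers. Other neutrophil markers, Csf3r, Ctsg, Mmp9, Il8rb and Prtn3, lay within the range of the others. The share of all probes that were highest in this liver is not given, so nothing is read from how many markers were. The part of these cells in its Lcn2 and Ltf was not tested. Without mouse 32 the liver difference was 0.08 for Lcn2 and −0.02 for Ltf.

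Between control lung and control liver each of the 6 genes differed, where 58.2% of all probes did. Pigr was lower in lung, by 3.26 on the log2 scale or 9.58-fold (2.15 ± 0.42, n = 6, against 5.41 ± 0.10, n = 8; adjusted p = 1.13e-12, limma), without overlap between the organs. The log2 difference shrank to −0.91 (adjusted p = 0.00355, limma) in the scanner software's processed signals, where Pigr was lower in lung still, and widened to −4.17 in the tissue channel alone. Among all probes 28.5% passed in that direction and 19% lay lower in lung without overlap. The 5 other genes were higher in lung, where 29.7% of all probes passed in that direction and 21.9% lay higher without overlap. Lcn2 was higher by 1.24 or 2.36-fold (adjusted p = 1.46e-05, limma), and by 1.40 without the liver of mouse 32, the only liver that reached the control lungs. Ltf was higher by 2.85 or 7.19-fold (adjusted p = 5.13e-05, limma), with the liver of mouse 32 above the lungs of mice 27 and 29. In control liver the first Ltf probe was well above background in Cy5 on 6 of 8 arrays and in the reference channel on 2 of 8, so this fold rests on dim spots.

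Igj was 1.66-fold higher in lung by 1 probe and 2.62-fold by the other (adjusted p = 9.6e-07 and 1.33e-07, limma), without overlap, but the first probe differed by only 0.07 (adjusted p = 0.818, limma) when arrays were centred on their median in place of loess. For Plunc and Reg3g the liver signal was not well above background, so only an estimate can be given from the tissue channel. By group means control lung was 176-fold above the liver floor for Plunc and 13.2-fold for Reg3g. Single lungs lay nearer: the log2 Cy5 of Reg3g was 6.78 and 7.26 in control mice 27 and 29, against a mean floor of 5.93. The test was made on the log2 ratio, which differed by less, 4.91 for Plunc (adjusted p = 9.64e-12, limma) and 3.35 for Reg3g (adjusted p = 6.79e-05, limma). For exposed lung against exposed liver the estimates were 188-fold and 22.9-fold. These estimates set a bright Cy5 signal against the lowest signal above background and, with no exchange of dyes, are open to dye bias. They are not strict bounds, since a spot not above background can lie higher, as the second Ltf probe did in exposed liver of mouse 9 (6.15).

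The order of the 4 groups thus differed by gene. Lcn2 was highest in exposed lung (3.06), then control lung (1.35), then the livers (0.11 and 0.03), which did not differ beyond their spread. Pigr was highest in control and exposed liver (5.41 and 5.35), which did not differ beyond their spread, then exposed lung (3.24), then control lung (2.15), with the lungs in the opposite order in the scanner software's processed signals. For Ltf, Igj, Plunc and Reg3g both lung groups lay above both liver groups by their means, the lungs did not differ beyond their spread, and nor did the livers for Ltf and Igj, while Plunc and Reg3g had no signal well above background in liver to compare.

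Of the lists, the alveolar type 2 markers were higher in control lung for 8 of 8 genes and the hepatocyte markers lower for 7 of 7. Of 18 B lineage and plasma cell genes 13 were higher in lung, led by Cd79b at 3.55 and Ms4a1 at 3.37, and 3 were lower, among them Xbp1 at −1.11, the secretory regulator that hepatocytes use as well. Of 17 other lipocalins 10 were lower in lung, led by Ambp at −7.99, and Apod (0.42, well above background on 4 of 14 arrays) was the 1 that was higher. Of the BPI-fold relatives U46068 (2.40, well above background on 9 of 14 arrays) and Pltp (1.45) were higher in lung, and Lbp (−0.92) and Bpil3 (−0.21, well above background on 6 of 14 arrays) were lower.

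**Figure D5:**
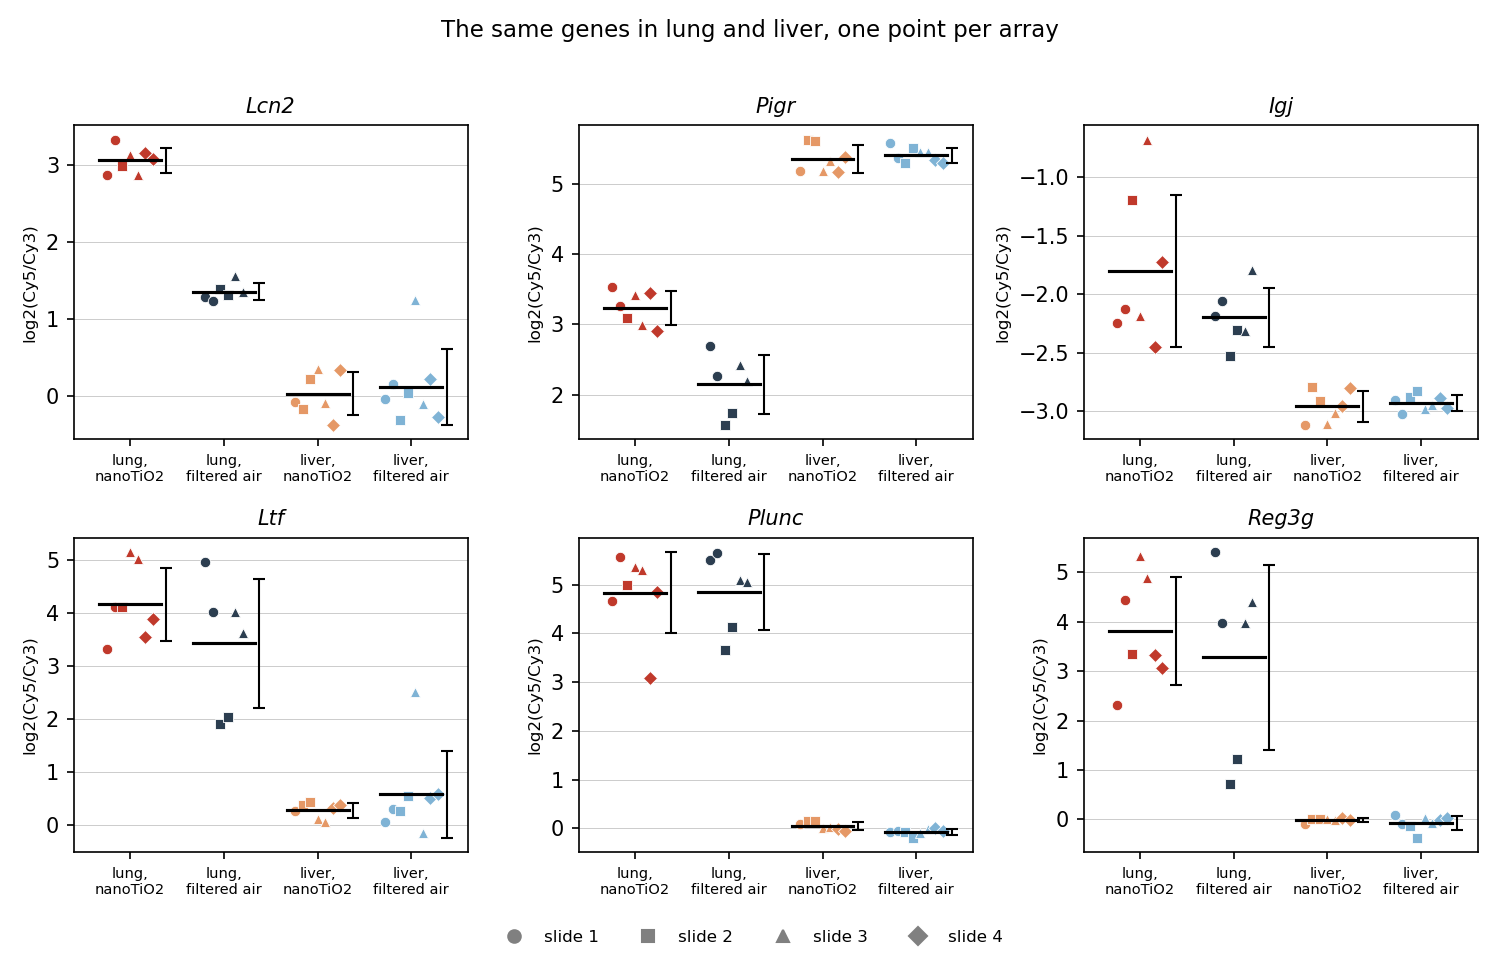
Log2(Cy5/Cy3) of the 6 genes in exposed and control lung and liver, 1 point per array, with group means and SDs as lines and bars and the marker shape giving the slide. Pigr is higher in liver (5.17 to 5.63) than in lung (1.57 to 3.54), the other genes are higher in lung by their means, and the single high control liver for Lcn2 (1.25) and Ltf (2.51) is mouse 32.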

How the data were processed

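The authors deposited the scanner output of each 2-colour array as intensity values (a signal and a local background per spot) with 0 or 1 flags, and a table of log2 ratios that they had normalized by LOWESS. Per the file headers, Feature Extraction 9.5.3.1 was used for lung and 10.1.1.1 for liver. The miRNA arrays (13) were not used here. Of the per-sample columns 0 were left unmapped.

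Groups were taken from the labels. Median signals were used from 28 arrays of 45018 spots. Spots flagged for feature non-uniformity, feature population or background non-uniformity in either channel were set missing, background was corrected with normexp (offset 50), and arrays were normalized by loess in limma 3.58.1 (R 4.3.3, statmod 1.5.0). Control spots were dropped and the spots of a probe averaged. The probe with the highest mean Cy5 signal spoke for a gene. Exposed and control mice were compared within each organ, and control lung with control liver, by lmFit and eBayes with Benjamini-Hochberg adjustment over all probes (threshold 0.05). The script was tested on simulated data. Single liver values were also tested by exact permutation. The number of arrays limits the precision, and p-values measure the spread between mice of 1 experiment.

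The members, gene lists and tests were chosen with earlier results of these data known. In each list the genes that passed were named, at most 4 by size of the difference, and otherwise the highest and lowest. For Lcn2, Pigr and Plunc the 3 most correlated genes were named; the genes most like Igj, Ltf and Reg3g were named after their values were seen. In control lung against control liver, genes were named for part of the lists.

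Alternatives were other background, flag and normalization settings, the scanner software's processed intensity signals, the authors' log2 table (r = 0.993 to 0.997 per array with the values used here, column medians −0.042 to −0.022), slide as a block, a filter on dim probes, and leaving out each array. The reported comparison of control lung with control liver was not paired. Lung and liver of the same mouse were paired by animal only in an alternative, over the 6 mice with both organs. Their deviations from the group means correlated at −0.03 to 0.18 over 19595 probes in 6 control mice. Figures were drawn with matplotlib 3.10.9.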

Additional observations from a re-analysis of the deposited data

Results flagged for a closer look

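Of 28 sets of values, 1 for each probe and group, 4 held a mouse far from the rest of its group, where chance gives about 1 in 20. Control liver of mouse 32 accounted for 3 of them, with Lcn2 at 1.25 (next highest 0.22), Ltf at 2.51 by the first probe (next 0.60) and Ltf at 1.96 by the second probe (next 0.26). In the same liver neutrophil markers such as S100a9, Camp and Mpo were above the 7 other control livers, and others such as Csf3r and Ctsg were not. The part of these cells was not tested. The other was Plunc in the lung of exposed mouse 20, at 3.09 where the next lowest exposed lung was at 4.66. Its Ltf (3.56) and Reg3g (3.32) lay inside the range of the other exposed lungs, while its U46068 (1.91), Scgb1a1 (6.16) and Scgb3a2 (6.88) and its mean of the conducting airway list (3.57) were the lowest of the exposed lungs. Its Muc5b (3.54) lay near the exposed median (3.51), and mouse 1, with Plunc at 4.66, had nearly the same list mean (3.59). The part of airway tissue was not tested.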

How the results depend on the processing

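In lung 91 probes passed, against 15 with normexp fitted on all spots, 22 with feature flags only, 6 with median centering and 54 without slide 2 (an alternative chosen after seeing the data). Leaving out 1 lung gave 71 to 92. The Lcn2 difference was 1.20 with normexp on all spots, 1.18 with feature flags only and 2.14 in the Cy5 channel alone (also chosen after seeing the data), and 1.55 within slide 3. The Pigr difference was 0.36 and 0.23 under the first pair of settings, 1.43 within slide 2, and turned to −0.35 in the scanner software's processed signals. The cause was not tested. Within slides Ltf ran from −0.78 (slide 1) to 2.14 (slide 2), Reg3g from −1.31 to 2.38, Igj reached 1.23 and Plunc 1.11 on slide 2. In liver the within-slide values outside the spread were Pigr −0.29 (slide 1) and 0.22 (slide 2), Igj −0.15 (slide 1) and Ltf −1.09 (slide 3). Leaving out 1 array gave, in lung, Lcn2 1.66 to 1.74, Pigr 0.97 to 1.20, Ltf 0.43 to 1.05, Igj 0.21 to 0.51, Plunc −0.25 to 0.28 and Reg3g 0.02 to 0.96. In liver it gave Lcn2 −0.15 to 0.08, Pigr −0.10 to −0.02, Ltf −0.40 to −0.02 and Igj −0.06 to −0.0011, with 0 probes past the threshold each time.

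Between control lung and control liver 23974 probes passed, and 23071 to 24045 with 1 array left out. Leaving out 1 array gave Lcn2 1.18 to 1.40, Pigr −3.37 to −3.14, Ltf 2.54 to 3.15, Igj 0.65 to 0.80, Plunc 4.75 to 5.15 and Reg3g 2.93 to 3.86. Median centering took Igj to 0.072 (adjusted p = 0.818, limma). Over the processing settings other than leaving out an array, Pigr ran from −4.17 to −0.91 and Plunc from 4.75 to 7.49 in this comparison, and in liver the Pigr difference ran from −0.16 to 0.69. With mouse as a replicate block over the 6 mice with both organs 22850 probes passed, Lcn2 differed by 1.19 and Pigr by −3.29, and the block changed no other call. Of the alternatives for the counts and the leading probes, 467 were counted as unchanged, 17 moved outside the spread, 5 fell short and 1, Pigr in lung, was counted as turned. Moved values had changed by at least the pooled SD, in either direction, so that smaller differences are among them. Unchanged meant that direction and side of the threshold were kept, that the value stayed within the spread, or that the direction changed but neither fit passed. The liver difference of Pigr, from −0.05 to 0.69, was of the last kind and left its spread. The reference spot was well above background on 1 of 6 control lung arrays for Pigr, 3 of 6 for Reg3g and 4 of 6 for Ltf, which limits the precision of these ratios.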
